A study of Homo sapiens with 14 samples.

Results

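CCDC141, SESTD1 and ZNF385B lie side by side on human chromosome 2 and make up the SESTD1 locus described here. They were chosen by symbol, with earlier results of these arrays known, and are 3 of the 14884 gene symbols that the array's annotation names. The choice is treated here as resting on the difference between CTCF siRNA and control siRNA at 144 h, so every value of the 3 genes that uses the 144 h arrays is given as a description, with no test. Each gene has a single named probe set on the array, and all 3 were measured on all 14 arrays.

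The study asked how depletion of CTCF by RNA interference changes gene expression in LNCaP, an established line of androgen-responsive human prostate cancer cells. LNCaP cells received a pool of siRNAs against CTCF or a pool of non-targeting control siRNAs, each an ON-TARGET plus pool at 20 nM, and RNA was taken at 24, 72 and 144 h and hybridised to Affymetrix whole-transcript gene arrays. For the last time point cultures of both arms were divided after 72 h and given the same siRNA once more by reverse transfection. At 144 h a longer depletion and a further dose of CTCF siRNA therefore cannot be told apart. A seventh group was left untransfected, and its labels give no time other than a code that begins with 72. Every group had 2 arrays, so CTCF siRNA and control siRNA were each represented by 6 arrays and untransfected cells by 2. All groups were cells of this same line. The study's methods describe the 2 arrays of a group as biological replicates.

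CTCF recognises DNA through its zinc fingers and, with the cohesin ring, holds the bases of chromatin loops, so that genes inside a loop share a neighbourhood of enhancers and genes outside it are kept apart. Adjacent genes can therefore respond together when CTCF is lost, or can respond to enhancers they did not contact before. The genes of this locus were not compared with each other in sequence or function. SESTD1 encodes a protein with a SEC14 lipid-binding domain and spectrin repeats that binds phospholipids. CCDC141 encodes a coiled-coil protein that in mouse acts in the migration of cortical neurons, where it is called Camdi. ZNF385B encodes a zinc finger protein of a small family that also holds ZNF385A, a partner of p53. In the RefSeq gene table the order is CCDC141, SESTD1, ZNF385B, with only non-coding RNA genes and pseudogenes between them.

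The gene starts are shown because the 3 genes were chosen for a shared difference at 144 h, and 2 of the 3 have a promoter in the RefSeq table (GRCh38.p14), which holds 250 bases before and 50 after each annotated start. SESTD1 was not matched there. CCDC141 had 1 promoter window, at chr2:179050088-179050387 on the minus strand, and ZNF385B had 5, of which the farthest upstream lies at chr2:179861563-179861862 on the minus strand. Both are printed 5′ to 3′ on the strand of the gene, with each CpG in capitals.
CCDC141: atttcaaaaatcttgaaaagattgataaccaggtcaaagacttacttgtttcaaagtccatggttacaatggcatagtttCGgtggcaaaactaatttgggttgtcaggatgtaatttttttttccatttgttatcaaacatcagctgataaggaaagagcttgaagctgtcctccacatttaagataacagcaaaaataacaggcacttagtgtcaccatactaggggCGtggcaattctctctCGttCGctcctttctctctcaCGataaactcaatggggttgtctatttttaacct
ZNF385B: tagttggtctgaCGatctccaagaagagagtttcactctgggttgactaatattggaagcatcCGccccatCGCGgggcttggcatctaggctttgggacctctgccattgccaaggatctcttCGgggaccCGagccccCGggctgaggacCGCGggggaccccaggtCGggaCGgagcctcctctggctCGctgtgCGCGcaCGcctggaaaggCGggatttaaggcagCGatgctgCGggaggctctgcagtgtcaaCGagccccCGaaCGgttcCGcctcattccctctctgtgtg
The CCDC141 window is poor in G and C, at 37.7% with 5 CpG, and 33.7% of the 35116 RefSeq promoter windows have as few CpG or fewer. The ZNF385B window has 62.3% G and C with 22 CpG, against medians of 58.7% and 14 over all windows. The other 4 ZNF385B windows held between 1 and 5 CpG.

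RefSeq also places the microRNA gene MIR1258 inside ZNF385B, near its farthest upstream start and on the same strand. Its mature sequence is shown because it has a named probe set of its own inside the locus. That probe set reads low, with a log2 mean of 2.69 over the arrays, at the 16.9 percentile of all named probe sets. How far it stands above background is not known. It lies at chr2:179860845-179860865 (GRCh38.p14, minus strand), with the seed, bases 2 to 8, in capitals.
hsa-miR-1258: aGUUAGGAuuaggucguggaa

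The targeted gene followed the labels. CTCF itself read 6.73 to 7.46 on the log2 scale on the 6 CTCF siRNA arrays, 8.98 to 9.19 on the 6 control siRNA arrays and 8.78 to 8.85 on the untransfected arrays, with no overlap. All levels here are log2 values from robust multi-array averaging (RMA), and a difference of 1 is a 2-fold change in signal. CTCF fell, with differences from control siRNA of -2.07 at 24 h, -1.72 at 72 h and -2.24 at 144 h (limma, adjusted p = 0.0057, 0.0062 and 1.4e-04). Of the luminal prostate markers 7 of 10 had a named probe set, with levels between the 62.1 and 99.6 percentile of all named probe sets, and FOLH1, KLK2 and EPCAM were above the 96 percentile. The fibroblast genes DCN and LUM lay below the 7 percentile, and the basal genes KRT5, KRT14 and NGFR between the 12.6 and 42.0 percentile. Levels above the luminal KRT8 (62.1) or near it were also read for CD68, the only leukocyte marker with a probe set (64.4), the muscle gene DES (54.0) and the neuronal gene SYP (52.7), so not every marker separates the classes. Replicate arrays correlated at 0.992 to 0.994 over the named probe sets. Array medians over all rows, unnamed ones included, lay between 3.67 and 3.72.

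At 144 h all 3 genes were higher on both CTCF siRNA arrays than on any other array of that time. CCDC141 read 4.24 and 4.49 with CTCF siRNA, against 2.60 and 2.79 with control siRNA. These are levels in bulk RNA, where more cells of a kind and more RNA per cell cannot be told apart. SESTD1 read 7.99 and 7.90 with CTCF siRNA, against 7.18 and 6.98 with control siRNA. ZNF385B read 8.43 and 8.53 with CTCF siRNA, against 7.11 and 6.97 with control siRNA. The arms did not overlap for any of the 3, as for 24.8% of all probe sets with both CTCF siRNA arrays above both control arrays. The difference was largest for CCDC141, at 1.67 ± 0.19 (SE, 3.19-fold), with 1.44 ± 0.13 (2.71-fold) for ZNF385B and 0.87 ± 0.12 (1.82-fold) for SESTD1. The 95% intervals were 1.26 to 2.09, 1.14 to 1.73 and 0.60 to 1.14. They take no account of how the genes were chosen and serve as no test. In the replicates of these same arrays the difference was 1.64 and 1.71 for CCDC141, 0.81 and 0.92 for SESTD1 and 1.32 and 1.55 for ZNF385B. Ordered by this difference from the highest, the genes stood at places 23, 166 and 33 of the 16098 named probe sets, in the order CCDC141, SESTD1 and ZNF385B. Over all named probe sets 606 passed the test at this time (3.76%), 381 of them higher (2.37%), and nothing is read from this for genes chosen on the contrast. With any single 144 h array left out the count fell to 210 to 245.

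**Figure D1:**
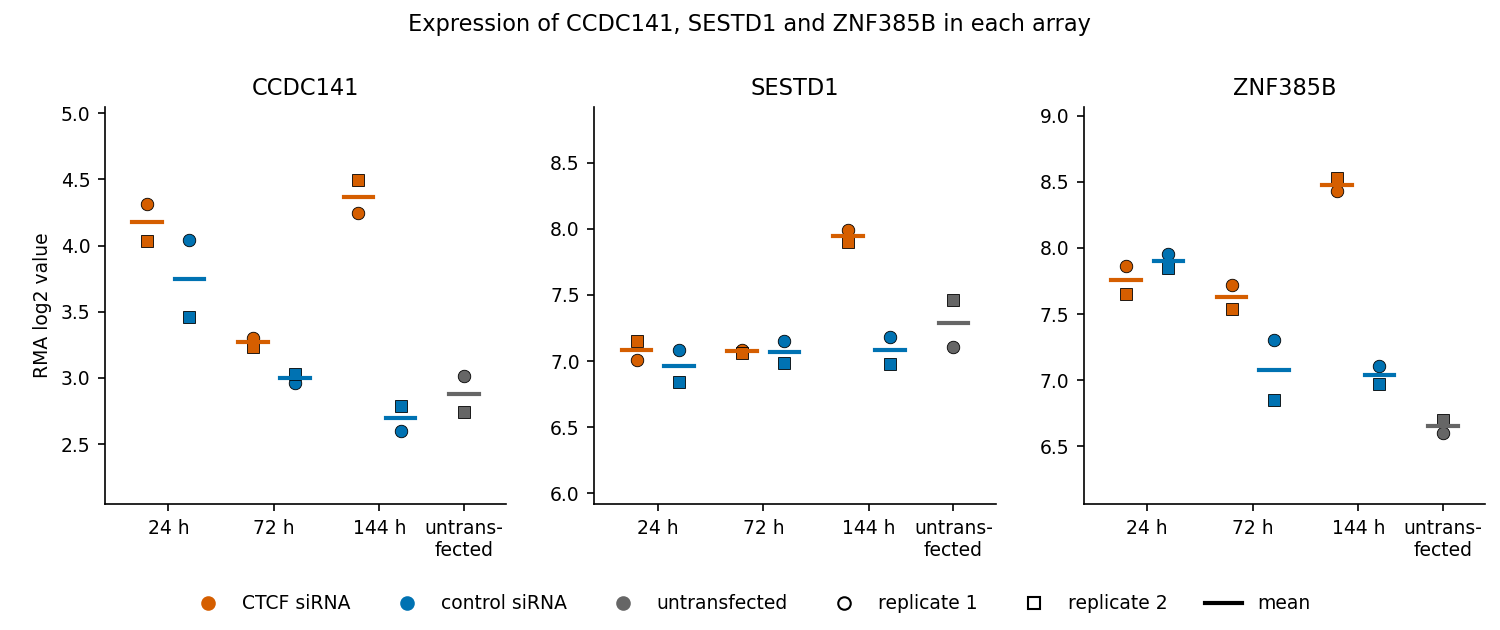
RMA log2 value (vertical axis, with the same span of 3 units in each panel) of CCDC141, SESTD1 and ZNF385B in each of the 14 arrays by time and treatment. Points are single arrays, circles replicate 1 and squares replicate 2, and bars are means of 2 arrays. SESTD1 stands apart at 144 h with CTCF siRNA only, while CCDC141 and ZNF385B are also high at 24 h in both arms.

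The level of SESTD1 was flat outside that group. Its 12 other arrays lay between 6.85 and 7.47, and the means of the other 6 groups, from 6.97 with control siRNA at 24 h to 7.29 in untransfected cells, followed each other with overlapping arrays. The step up to CTCF siRNA at 144 h, with a mean of 7.95 ± 0.07 (SD, n = 2), was 0.66 above untransfected cells and the only step in its order without overlap.

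CCDC141 had a different course. Its mean was lowest with control siRNA at 144 h (2.69 ± 0.13, SD, n = 2), then in untransfected cells (2.88 ± 0.19) and with control siRNA at 72 h (2.997 ± 0.05), and these neighbours overlapped. CTCF siRNA at 72 h followed at 3.27 ± 0.05, clear of the groups on either side of it. The 24 h groups, control siRNA (3.75 ± 0.41) and CTCF siRNA (4.18 ± 0.20), and then the 144 h CTCF siRNA group (4.37 ± 0.18) overlapped from each to the next. So CCDC141 at 144 h with CTCF siRNA was about where it stood at 24 h, with a difference of 0.19 ± 0.19 (95% interval -0.22 to 0.61). The CCDC141 values are low, with a mean of 3.45 over the 14 arrays, at the 28.9 percentile of all named probe sets. In untransfected cells, with control siRNA at 72 and 144 h and with CTCF siRNA at 72 h they lay below the array medians (3.67 to 3.72). So did control siRNA 24 h replicate 2, at 3.46. These medians are over all rows, unnamed ones included. The middle of the named probe sets is higher, with HNRNPA3, at a mean of 4.70, on their 49.5 percentile. Every CCDC141 array, the highest at 4.49, lay below that level. How far the CCDC141 values stand above background is not known.

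ZNF385B was lowest in untransfected cells, at 6.65 ± 0.07 (SD, n = 2), without overlap with any other group. The later control siRNA groups, at 144 h (7.04 ± 0.10) and 72 h (7.08 ± 0.32), followed and overlapped. The next overlapping run was made by CTCF siRNA at 72 h (7.63 ± 0.13) and 24 h (7.76 ± 0.15), with control siRNA of 24 h (7.90 ± 0.07) at its top. CTCF siRNA at 144 h stood above it at 8.48 ± 0.07.

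The earlier times were tested on the assumption that the genes were chosen on 144 h values alone, which the selection rule does not state. At 24 h CCDC141 read 4.32 and 4.04 with CTCF siRNA, against 4.04 and 3.46 with control siRNA. ZNF385B read 7.87 and 7.65 with CTCF siRNA, against 7.95 and 7.85 with control siRNA, and SESTD1 read 7.01 and 7.15 with CTCF siRNA, against 7.09 and 6.85 with control siRNA. The arms overlapped for all 3 genes, for CCDC141 only by the lower CTCF siRNA array and the higher control siRNA array, which read nearly the same. The differences were 0.42 ± 0.19 for CCDC141 (limma, adjusted p = 0.81), 0.12 ± 0.12 for SESTD1 (adjusted p = 0.98) and -0.14 ± 0.13 for ZNF385B (adjusted p = 0.97). None of the 3 passed the test at 24 h, where 2 of all 16098 probe sets did (0.0124%). Without adjustment the limma p was 0.045 for CCDC141, the only member under 0.05, a level that 6.03% of all probe sets reached. CTCF mRNA was already down at this time, as given above.

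At 72 h CCDC141 read 3.30 and 3.24 with CTCF siRNA, against 2.96 and 3.03 with control siRNA. ZNF385B read 7.72 and 7.54 with CTCF siRNA, against 7.30 and 6.85 with control siRNA, and SESTD1 read 7.09 and 7.06 with CTCF siRNA, against 7.15 and 6.98 with control siRNA. The arms did not overlap for CCDC141 and ZNF385B, which holds in that direction for 16% of all probe sets, and the SESTD1 arrays of CTCF siRNA fell inside those of control siRNA. The differences were 0.55 ± 0.13 for ZNF385B (95% interval 0.26 to 0.85, limma, adjusted p = 0.25), 0.27 ± 0.19 for CCDC141 (-0.14 to 0.68, adjusted p = 0.79) and 0.007 ± 0.12 for SESTD1 (-0.26 to 0.28, adjusted p = 0.995). None of the 3 passed, against 30 of all probe sets (0.186%). By size of difference ZNF385B stood at place 117 from the highest. Its limma p before adjustment was 0.0019, and it was the only member under 0.05, a level that 8.03% of all probe sets reached.

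**Figure D2:**
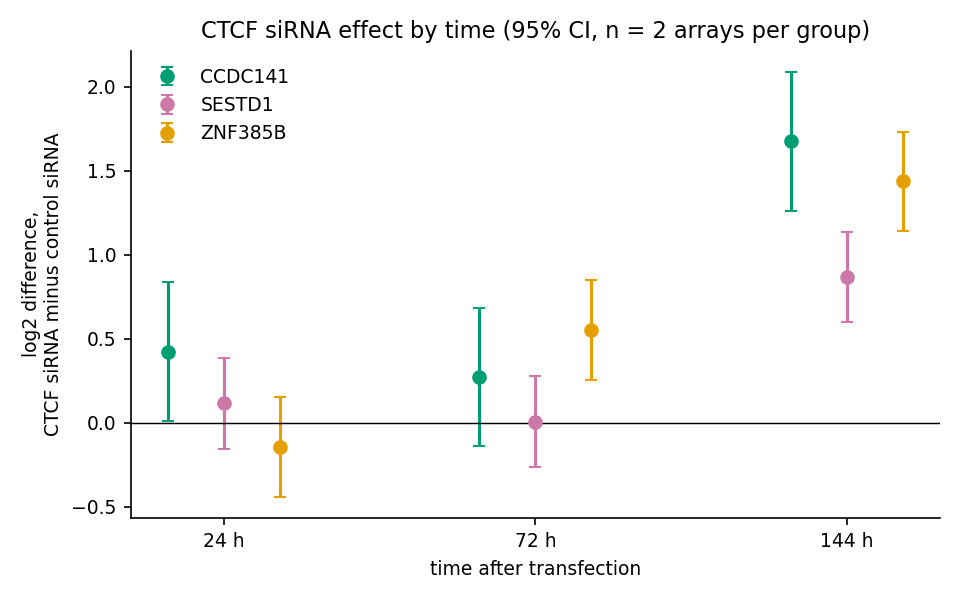
Log2 difference between CTCF siRNA and control siRNA (vertical axis) at 24, 72 and 144 h (horizontal axis) for the 3 genes. Points are the fitted differences and bars their 95% intervals, with 2 arrays in each group. The 144 h points, at 0.87 to 1.67, and their intervals are a description, since the genes are taken to have been chosen on them. Of the tested times, the interval of ZNF385B lies above 0 at 72 h and that of CCDC141 at 24 h, and neither passed after adjustment.

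The CTCF effect at 72 h minus that at 24 h was 0.69 ± 0.19 for ZNF385B (limma, unadjusted p = 0.0041, adjusted p = 0.77), -0.15 ± 0.26 for CCDC141 (adjusted p = 0.98) and -0.11 ± 0.17 for SESTD1 (adjusted p = 0.98). None of the members passed, nor did any of the 16098 probe sets (0%), of which 864 (5.37%) had an unadjusted p under 0.05. As a description, the CTCF effect at 144 h exceeded that at 72 h by 1.40 for CCDC141, 0.86 for SESTD1 and 0.88 for ZNF385B. For CCDC141 and SESTD1 the later interval, which began with the split and the further transfection, held the positive step, and for ZNF385B both intervals had a positive difference.

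Each arm was also compared between times. With CTCF siRNA, CCDC141 stood 0.91 ± 0.19 lower at 72 h than at 24 h (limma, adjusted p = 0.062), ZNF385B 0.13 ± 0.13 lower (adjusted p = 0.71) and SESTD1 0.006 lower (adjusted p = 0.99). With control siRNA, ZNF385B stood 0.82 ± 0.13 lower at 72 h than at 24 h (adjusted p = 0.060) and CCDC141 0.75 ± 0.19 lower (adjusted p = 0.16), while SESTD1 was 0.10 ± 0.12 higher (adjusted p = 0.79). None of the 3 passed in either arm, where 72 (0.447%) of all probe sets passed with CTCF siRNA and 14 (0.087%) with control siRNA. Under other settings of the same test CCDC141 passed with CTCF siRNA (adjusted p = 0.0497 with no replicate block and 0.034 with a trended, robust variance) and ZNF385B with control siRNA (adjusted p = 0.031 with dim probe sets left out and 0.0093 with a trended, robust variance). As a description, the CTCF siRNA arm stood higher at 144 h than at 72 h by 1.10 for CCDC141, 0.87 for SESTD1 and 0.85 for ZNF385B, and the control siRNA arm differed by -0.30 for CCDC141, 0.01 for SESTD1 and -0.04 for ZNF385B.

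Untransfected cells gave a further comparison, in a fit of all 14 arrays. They read 3.01 and 2.74 for CCDC141, 7.11 and 7.47 for SESTD1 and 6.60 and 6.70 for ZNF385B. CCDC141 and ZNF385B rose in both siRNA arms at 24 h. ZNF385B was 1.11 ± 0.14 higher with CTCF siRNA (limma, adjusted p = 0.0012) and 1.25 ± 0.14 higher with control siRNA (adjusted p = 6.9e-04) than in untransfected cells. CCDC141 was 1.30 ± 0.18 higher with CTCF siRNA (adjusted p = 0.0021) and 0.87 ± 0.18 higher with control siRNA (adjusted p = 0.014). SESTD1 differed by -0.20 (adjusted p = 0.45) with CTCF siRNA and -0.32 (adjusted p = 0.24) with control siRNA, and did not pass. So 2 of the 3 passed in each arm, where 9.25% of all probe sets passed with CTCF siRNA and 7.57% with control siRNA. These comparisons share the untransfected arrays. The CCDC141 call with control siRNA was lost without untransfected replicate 1 (adjusted p = 0.054), untransfected replicate 2 (0.11) or control siRNA 24 h replicate 1 (0.14). The time at which untransfected cells were taken is not given apart from the code above, so time in culture and transfection cannot be told apart.

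At 72 h ZNF385B was still 0.98 ± 0.14 above untransfected cells with CTCF siRNA (limma, adjusted p = 0.0052), and this call was lost without untransfected replicate 1 (adjusted p = 0.051). It was the only member of the 3 to pass there, against 3.22% of all probe sets. With control siRNA the ZNF385B difference was 0.42 ± 0.14 (adjusted p = 0.24). CCDC141 stood 0.39 above untransfected cells with CTCF siRNA (adjusted p = 0.30) and 0.12 with control siRNA (adjusted p = 0.87), and SESTD1 differed by -0.21 (adjusted p = 0.52) and -0.22 (adjusted p = 0.64). None of the 3 passed with control siRNA, against 0.478% of all probe sets. At 144 h, as a description, CTCF siRNA stood above untransfected cells by 1.49 for CCDC141, 0.66 for SESTD1 and 1.82 for ZNF385B, and control siRNA by -0.19, -0.21 and 0.39.

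Across the arrays the courses of CCDC141 and ZNF385B were the most alike of the 3. The Pearson correlation of CCDC141 with ZNF385B was 0.87 over 14 arrays and 0.78 over the 10 arrays without 144 h. SESTD1 correlated at 0.44 with CCDC141 and 0.49 with ZNF385B over 14 arrays, and at -0.37 and -0.50 without the 144 h arrays. The arrays of a group share their treatment, and the 14-array values hold the arrays on which the genes were chosen, so these are descriptions with no p. The genes most like each member over the 14 arrays, with a single probe set for each symbol, were PEA15 (r = 0.96), WWC1 (0.93) and CLU (0.93) for CCDC141, GSTT2B (0.93), CHD9 (0.93) and FDX1 (0.93) for SESTD1, and MPC2 (0.98), EIF2AK4 (0.95) and UBR7 (0.95) for ZNF385B. None of these 9 is shared between members. None lies on chromosome 2 while the brighter probe set stands for TTN, but the dimmer TTN probe set, described further on, correlated with CCDC141 at 0.964, above the 0.957 of PEA15.

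Of the listed neighbours, only TTN passed as higher with CTCF siRNA than with control siRNA, at 144 h and by the dimmer of its 2 probe sets, given further on. Of 38 further genes listed along this stretch of chromosome 2, from the HOXD cluster to NUP35, 26 were matched to a named probe set. With the brighter probe set standing for TTN, 0 were higher and 2 lower (RBM45 and HOXD13) at 144 h, against 2.37% and 1.4% of all probe sets. Their median difference was -0.007 against 0.003 over all probe sets. The listed TTC30B was not matched, and under its newer symbol IFT70B it differed by -0.28 ± 0.20 at 144 h (limma, adjusted p = 0.57). At 24 and 72 h none of the 26 passed, against 0.0124% and 0.186% of all probe sets. CWC22, a splicing factor gene and the next protein-coding gene beyond ZNF385B, differed by 0.14 ± 0.12 at 144 h (limma, adjusted p = 0.61), and UBE2E3, a ubiquitin-conjugating enzyme gene, by 0.15 ± 0.10 (adjusted p = 0.55). MIR1258, which was not on the list and was added after its values were seen, read 2.59 and 2.92 with CTCF siRNA at 144 h, against 2.62 and 2.73 with control siRNA, a difference of 0.08 ± 0.13 (adjusted p = 0.84). On this side no measured gene of the list beyond ZNF385B passed at 144 h. SCHLAP1, ITGA4, NEUROD1, PPP1R1C, PDE1A and DNAJC10, listed on the same side, had no named probe set and were not read.

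On the other side, RBM45, which encodes an RNA-binding protein, fell. It read 4.24 and 3.91 with CTCF siRNA at 144 h, against 6.21 and 5.82 with control siRNA, a difference of -1.94 ± 0.15 (limma, adjusted p = 1.3e-04). At 72 h it differed by -0.46 ± 0.15 (adjusted p = 0.41) and at 24 h by 0.19 ± 0.15 (adjusted p = 0.96). The list of neighbours was made with earlier results of these arrays known. The adjusted p of its genes at 144 h is therefore a description of the locus. Between RBM45 and CCDC141, OSBPL6, a lipid-binding protein gene, differed by 0.43 ± 0.17 at 144 h (limma, adjusted p = 0.24). FKBP7, a chaperone gene of the endoplasmic reticulum, differed by -0.74 ± 0.18 (adjusted p = 0.059). TTN, the gene of the muscle protein titin, also lies there. The list places PRKRA, PJVK, PLEKHA3 and TTN-AS1 there too, but these had no named probe set. HOXD13 differed by -0.80 ± 0.15 at 144 h (adjusted p = 0.016) and by -0.87 ± 0.15 at 72 h (adjusted p = 0.060).

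TTN was on the list, but its 2 probe sets were singled out after their values were seen. They disagreed. By number the brighter falls among probe sets of plus-strand genes and the dimmer among those of minus-strand genes. RefSeq gives TTN on the minus strand, and which strand each probe set reads was not tested. The brighter, which stood for the gene in the counts above, read 5.33 and 5.41 with CTCF siRNA at 144 h, against 5.13 and 5.56 with control siRNA, a difference of 0.02 ± 0.14 (limma, adjusted p = 0.97). The dimmer read 4.71 and 5.36 with CTCF siRNA, against 3.01 and 3.28 with control siRNA, a difference of 1.89 ± 0.30 (adjusted p = 0.0077). The dimmer TTN probe set followed the course of CCDC141 in the other groups as well, with 4.82 and 3.997 with CTCF siRNA and 4.59 and 3.86 with control siRNA at 24 h, and 3.198 and 3.16 in untransfected cells. Its correlation with CCDC141 was 0.96 over 14 arrays and 0.96 over the 10 without 144 h, as a description, and that of the brighter was -0.01 and -0.11. With the dimmer probe set standing for TTN, 1 of the 26 neighbours was higher at 144 h and 2 were lower. Of the muscle markers listed, DES and MYOD1 had a probe set, with mean log2 levels of both together between 3.93 and 4.49 over the 14 arrays, and their part in the TTN readings was not tested.

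**Figure D3:**
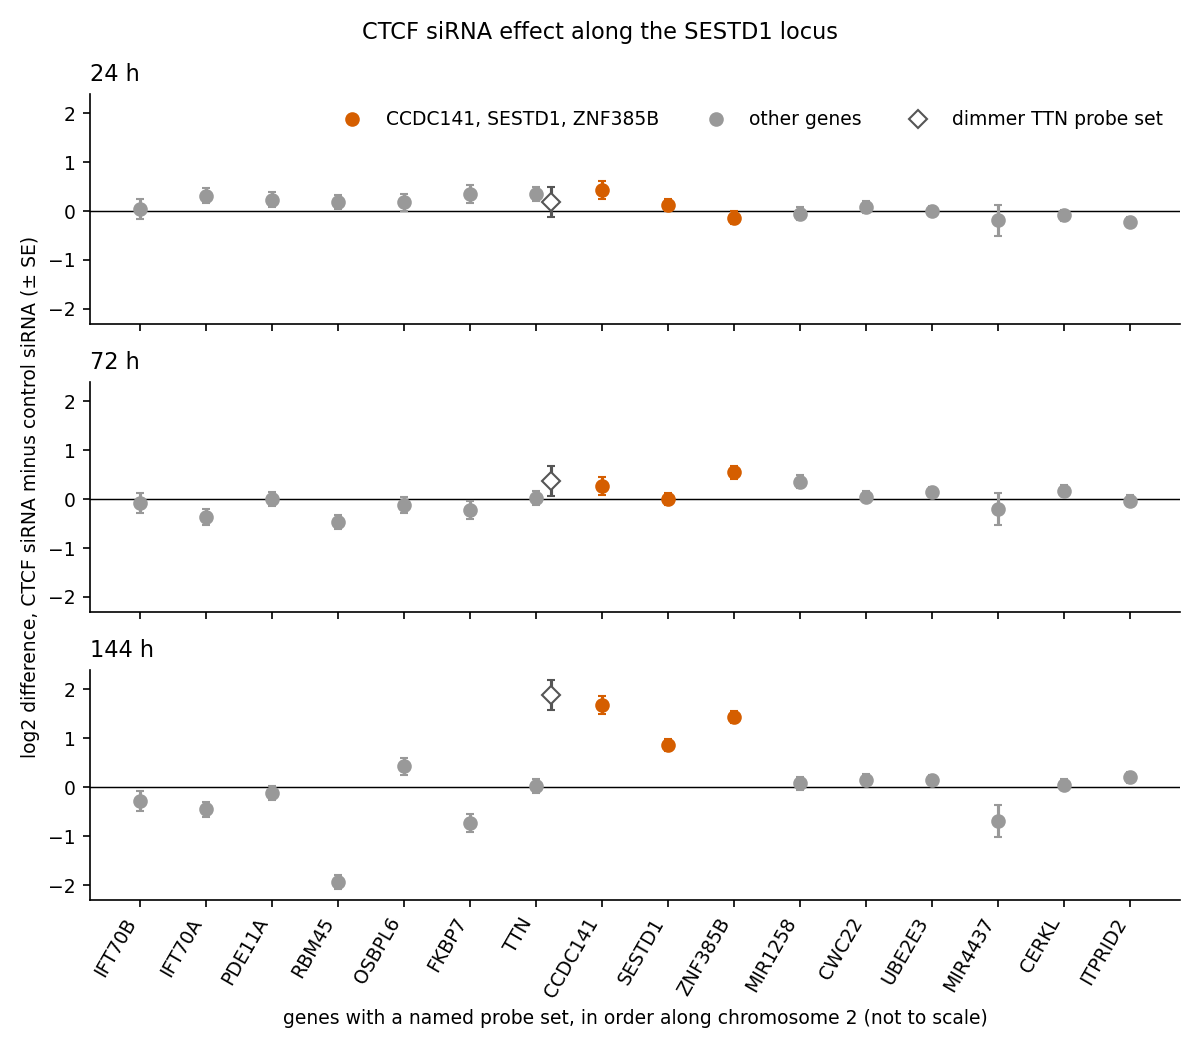
Log2 difference between CTCF siRNA and control siRNA with its SE (vertical axis) for 16 genes in their RefSeq order along chromosome 2 (horizontal axis, not to scale), in a panel each for 24, 72 and 144 h. Orange points are CCDC141, SESTD1 and ZNF385B, grey points the other genes, and the open diamond the dimmer TTN probe set. At 144 h the 3 genes and the diamond lie above 0.8, RBM45 at -1.94, and CWC22 and UBE2E3 within 0.15 of 0.

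**Figure D4:**
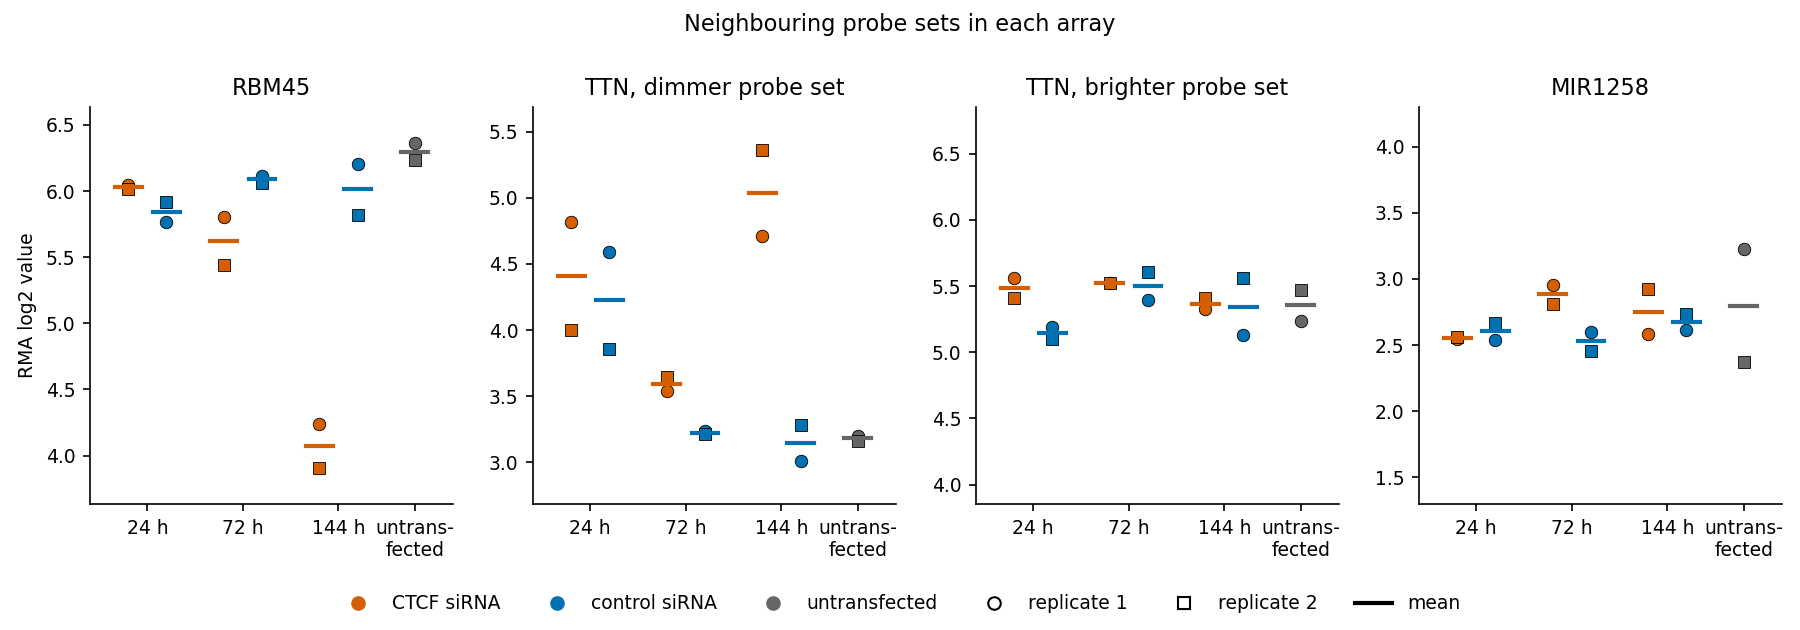
RMA log2 value (vertical axis, with the same span of 3 units in each panel) of RBM45, both TTN probe sets and MIR1258 in each of the 14 arrays by time and treatment. Points are single arrays, circles replicate 1 and squares replicate 2, and bars are means. RBM45 is lowest and the dimmer TTN probe set highest with CTCF siRNA at 144 h, where the brighter TTN probe set and MIR1258 overlap between the arms.

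Partners and relatives of the encoded proteins were listed as well. Of 19 listed, 6 had a named probe set, TTN and MCF2L among them, with ZNF385A and ZNF385D of the ZNF385 family, HDAC6, a deacetylase tied to CCDC141 in mouse, and TRIO, a guanine nucleotide exchange factor with spectrin repeats. With the brighter TTN probe set standing for TTN, 0 of the 6 passed against control siRNA at 24, 72 or 144 h. Of all probe sets 0.0124%, 0.186% and 3.76% passed at these times. The dimmer TTN probe set passed at 144 h as given above. TRIO differed from control siRNA by 0.43 ± 0.11 at 144 h (limma, adjusted p = 0.060). With CTCF siRNA at 144 h it was higher than with CTCF siRNA at 24 h, by 0.54 ± 0.11 (adjusted p = 0.024). It was also higher there than in untransfected cells, by 0.44 ± 0.12 (adjusted p = 0.034). Over the alternative settings 209 to 843 probe sets passed in the former contrast and 981 to 2287 in the latter. In no other contrast run did any of the 6 pass. The median difference of the 6 against control siRNA at 144 h was 0.04, against 0.003 over all probe sets.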

How the data were processed

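The deposited values are log2 expression on 14 arrays. The authors corrected background, normalised quantiles and summarised probes by median polish (RMA) in R 3.2.5, which puts all groups on a common scale and compresses changes of dim probe sets. Of 53617 rows, GEO's platform annotation names a single gene for 16098 (14884 symbols), and 37519 unnamed rows entered only an alternative. No filter on low values was used.

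limma 3.58.1 in R 4.3.3 (lmFit, eBayes) was fitted to 12 siRNA arrays (6 groups), or to 14 arrays (7 groups) for contrasts with untransfected cells, with replicate number as a block as in the study's methods. Tests were two-sided with Benjamini-Hochberg adjustment over 16098 probe sets and a threshold of 0.05. Residual degrees of freedom were 5 and 6, and the median SE was 0.14. The probe set with the highest mean stood for a gene. Named genes were the members, CTCF, listed neighbours, partners and markers, and the 3 most like genes per member. Members and lists were chosen with earlier results of these data known. The fit was tested on simulated data. Alternatives were no block, other sets of arrays, all rows, no dim probe sets, median-centred arrays, another variance model and single arrays left out.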

Additional observations from a re-analysis of the deposited data

Results flagged for a closer look

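Of 18 pairs of effects checked on the 3 genes, 3 were flagged. A pair that uses 144 h arrays was flagged where both replicates had one sign in the first effect and the opposite sign in the second. These 3 differences were not tested, since the genes are taken to have been chosen on the 144 h arrays. A pair of 24 and 72 h was flagged only if its adjusted p passed, and none did. Among those, the CTCF effect on ZNF385B also had opposite signs, -0.09 and -0.20 at 24 h against 0.42 and 0.69 at 72 h (limma, adjusted p = 0.77 for the difference).

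The step of CCDC141 between 72 and 144 h was 0.94 and 1.26 in the replicates with CTCF siRNA, against -0.36 and -0.25 with control siRNA, a difference of 1.40. The effect of CTCF siRNA on ZNF385B was 1.32 and 1.55 at 144 h and -0.09 and -0.20 at 24 h, a difference of 1.58. The same 4 groups give the step of ZNF385B between 24 and 144 h, which was 0.56 and 0.88 with CTCF siRNA, against -0.84 and -0.88 with control siRNA, again 1.58 apart. Steps per replicate number assume that the numbers pair the times, while the 24 h labels carry codes ending in 3 and 4 and the others in 1 and 2, so this pairing is uncertain.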

How the results depend on the processing

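The differences of the 3 genes between CTCF siRNA and control siRNA at 24 and 72 h did not pass under any setting run, and the count of genes past the threshold stayed at 0. With single arrays left out, SESTD1 gave -0.028 to 0.26 at 24 h, and the range was -0.038 to 0.052 at 72 h, with the sign changed in 3 of these fits. For CCDC141 the ranges were 0.12 to 0.73 (24 h) and 0.19 to 0.36 (72 h). For ZNF385B they were -0.18 to -0.10 (24 h) and 0.38 to 0.73 (72 h, adjusted p between 0.17 and 0.77, and 0.078 to 0.73 under the other settings). The sign also changed, with single arrays left out, for SESTD1 against untransfected cells at 24 h with CTCF siRNA (-0.43 to 0.022), at 72 h with CTCF siRNA (-0.44 to 0.016) and at 72 h with control siRNA (-0.45 to 0.0095), for its step between 24 and 72 h with CTCF siRNA (-0.15 to 0.14), and for the change of the CTCF effect over the same interval in SESTD1 (-0.25 to 0.035) and CCDC141 (-0.46 to 0.16). The cause was not tested.

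With no replicate block, the difference of CCDC141 between 72 and 24 h with CTCF siRNA passed (adjusted p = 0.0497), and the probe sets called there were 130, against 72. It changed no other call of the 3 genes. Deviations of same-numbered arrays correlated at -0.09 to 0.23 over 15 pairs of siRNA groups. The 2 pairs over 0.1 were CTCF siRNA with control siRNA of the same time (0.23 at 72 h and 0.15 at 144 h, with 0.04 at 24 h), and the 12 pairs across times lay between -0.09 and 0.09. The CCDC141 rise with control siRNA at 24 h over untransfected cells was lost with all rows tested (adjusted p = 0.056) and with only the arrays compared (0.068).

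Counts over all probe sets moved most. Over the settings that kept all arrays of the groups compared, they were 0 to 5 at 24 h and 0 to 64 at 72 h for CTCF siRNA against control siRNA, and 274 to 861 at 144 h. Against untransfected cells they were 710 to 1909 with CTCF siRNA and 706 to 1655 with control siRNA at 24 h, and 138 to 914 and 0 to 221 at 72 h. Between 72 and 24 h they were 0 to 352 with CTCF siRNA and 0 to 116 with control siRNA. With single arrays left out they came to 0 to 1 at 24 h, 0 to 30 at 72 h and 210 to 245 at 144 h against control siRNA, and against untransfected cells to 387 to 831 with CTCF siRNA and 306 to 587 with control siRNA at 24 h and to 81 to 199 and 0 to 56 at 72 h. Between 72 and 24 h they were then 0 to 49 with CTCF siRNA and 0 with control siRNA. With dim probe sets left out CCDC141 has no value.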

Other observations

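The TTN probe sets differ in where their numbers fall. Among named chromosome 2 probe sets of genes with a single RefSeq strand, TTN left out, 396 of the 402 with lower numbers belong to plus-strand genes and 368 of the 387 with higher numbers to minus-strand genes, split at the number that best parts the strands. The brighter TTN probe set falls in the range of the plus-strand genes and the dimmer in that of the minus-strand genes. RefSeq gives TTN, CCDC141, ZNF385B and CWC22 on the minus strand and TTN-AS1, RBM45 and UBE2E3 on the plus strand. Which strand each TTN probe set reads was not tested.

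MIR1258 read 2.95 and 2.81 with CTCF siRNA at 72 h, against 2.60 and 2.46 with control siRNA, a difference of 0.36 ± 0.13 (limma, adjusted p = 0.52), at the time when ZNF385B differed by 0.55. Its correlation with ZNF385B over the 14 arrays was 0.004, as a description.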
